A study of Macaca mulatta with 5 samples.

Results

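The cells described are macrophages, monocytes and dendritic cells of the fetal rhesus macaque kidney. They were chosen by the study's own cluster names in 5 rhesus libraries. All cells named Macrophage (c33), Monocyte (c34), Classical Monocyte (c35), DC (c36) or pDC (c37) were taken. Other libraries of the deposited data, rhesus ones among them, were not analysed. These 5 myeloid clusters held 966 of the 36039 cells analysed, or 2.68%. The study profiled single cells of cortex-enriched kidneys of late gestation, the late second and the third trimester, when nephrons still form, and integrated them with human fetal kidney cells. The 5 rhesus libraries used here were of 2 preparations. Libraries 600 and 628 came from the cortex of 2 donor kidneys, dissected by hand and digested with cold-active enzymes, with trituration and shaking. Libraries 623, 627 and 632 came from kidneys vortexed in a cold Bacillus licheniformis mix, which gives a suspension biased towards cortex. The labels give no age or treatment for a single library, so age cannot be told apart from preparation. They do not say that the vortexed libraries are separate animals, so p-values reflect the spread among libraries alone, and that spread may be technical.

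Macrophages settle in the kidney early in fetal life, take up dying cells and debris, and are known to support the growth of nephrons and vessels. Monocytes are their circulating relatives, and classical monocytes are the subset recruited into tissue in inflammation. Dendritic cells carry antigen to T cells, and the name DC gives no subtype of them. Plasmacytoid dendritic cells, here named pDC, are specialised to secrete type I interferon. LYZ (lysozyme), CD163 (a scavenger receptor for haemoglobin and haptoglobin), CD74 (the invariant chain of MHC class II) and PTPRC (the pan-leukocyte phosphatase CD45) mark these cells. The deposited table gives a cluster name and a position for each cell and has no gene columns, so the names could not be checked against these markers, sequencing depth is unknown, and all values are counts or shares of cells.

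Library 632 stood apart in its number of cells and in the embedding. It was the smallest, with 2553 cells, against 6329 to 10502 in the other 4 libraries, yet it supplied 21.0% of all myeloid cells. Of its cells, 11.5% lay in an island of the study's UMAP embedding, a two-dimensional layout in arbitrary units, against 0.695% to 1.41% in the other libraries. The island was detached from the other cells of the 5 libraries, the only cells examined. Among the 5 libraries, 143 cell barcodes occurred in more than 1 library, and 7 myeloid cells carried such a barcode. No full cell identifier was repeated.

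Myeloid cells were most of the leukocytes in each of the 5 libraries. They made up 77.7% and 80.0% of immune cells in dissected libraries 600 and 628. In vortexed libraries 623, 627 and 632 they made up 86.4%, 91.8% and 83.2%. Immune cells here are the 5 myeloid clusters with T cell (c32) and B cell (c31), 1122 cells in all, and the mean myeloid share was 83.8% ± 5.54 (SD, n = 5). Myeloid cells outnumbered T and B cells together 3.42-fold and 3.96-fold in libraries 600 and 628, and 6.21-fold, 11.03-fold and 4.90-fold in libraries 623, 627 and 632. The average log2 ratio was 2.43 ± 0.66 (SD, n = 5), above 0 in 5 of 5 libraries (exact two-sided sign-flip permutation test, p = 0.063, the smallest that 5 libraries allow, and 0.125 after Benjamini-Hochberg adjustment over 4 ratios).

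As a share of all cells, myeloid cells varied 7.45-fold between libraries, and 3.68-fold without library 632. They made up 1.07% of dissected library 600 (exact Clopper-Pearson 95% interval, 0.838 to 1.34) and 2.28% of dissected library 628 (1.92 to 2.67). In the vortexed libraries they made up 1.35% of library 623 (1.14 to 1.604), 3.93% of library 627 (3.57 to 4.32) and 7.95% of library 632 (6.93 to 9.07). Libraries 600 and 623 were the lowest and their intervals overlapped, although they were prepared differently, and library 632 was the highest. The mean was 3.32% ± 2.82 (SD, n = 5), and 2.16% ± 1.29 without library 632. Intervals cover counting error only.

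By number, Classical Monocyte (c35) was the largest of the 5 clusters, with 337 cells, followed by Macrophage (c33) with 209, Monocyte (c34) with 184, pDC (c37) with 125 and DC (c36) with 111. Vortexed library 627 supplied the largest part of 4 of them, with 60.0% of the pDC (c37), 55.8% of the Classical Monocyte (c35), 46.8% of the DC (c36) and 36.4% of the Macrophage (c33) cells. It held 29.1% of all cells. Library 632 supplied 44.6% of the Monocyte (c34) cells, with 7.08% of all cells. With each library given equal weight, the mean shares of myeloid cells were 31.8% ± 8.80 for Classical Monocyte (c35), 23.6% ± 15.1 for Monocyte (c34), 23.0% ± 11.7 for Macrophage (c33), 11.6% ± 2.01 for DC (c36) and 10.1% ± 5.64 for pDC (c37) (SD, n = 5). Between each cluster and the next in this order, the means differed by less than the larger of the pair's SDs.

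**Figure D1:**
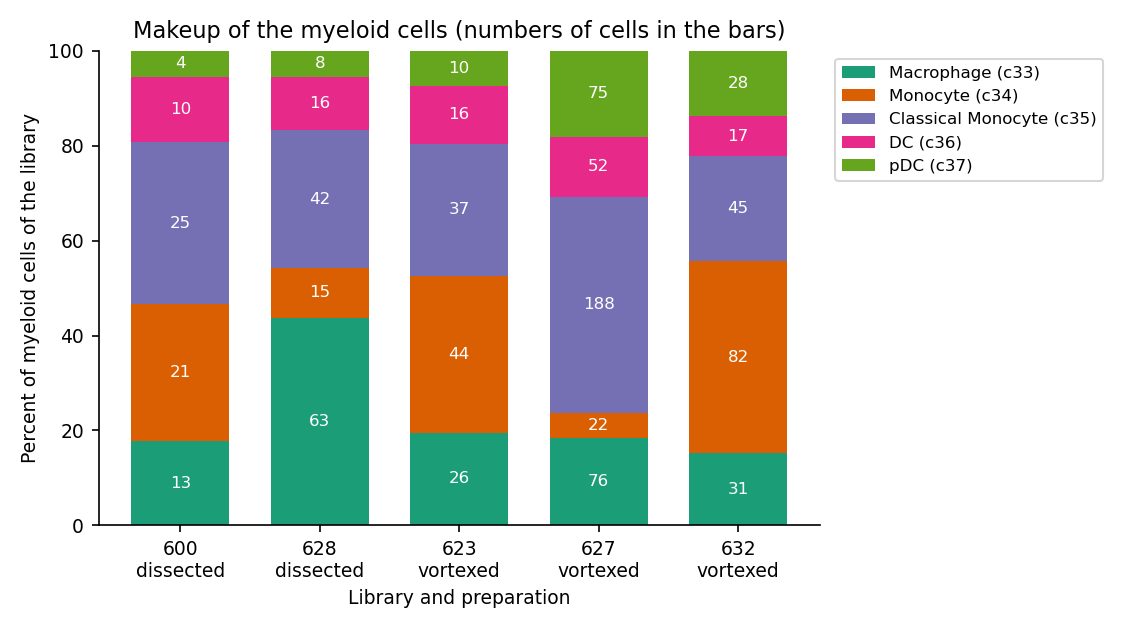
Makeup of the myeloid cells in each of the 5 libraries, with the dissected libraries on the left and the vortexed libraries on the right. Bars give the percent of the library's myeloid cells in each cluster and the numbers inside are cells; Macrophage (c33) is widest in library 628, with 43.8%, and Monocyte (c34) in library 632, with 40.4%.

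Macrophage (c33), the resident phagocytes, made up 0.190% and 0.995% of all cells in dissected libraries 600 and 628, with 13 and 63 cells. Vortexed libraries 623, 627 and 632 held 0.265%, 0.724% and 1.21%, with 26, 76 and 31 cells. Libraries 600 and 623 were low and libraries 628 and 632 high, so the preparations overlapped. In library 632, however, 16 of the 31 cells lay in the island. Without the island its share was 0.664%, against 0.729% in library 627 and 1.00% in library 628. Within the myeloid cells, library 628 was the exception: macrophages made up 43.8% there (95% interval, 35.5 to 52.3), against 15.3% to 19.5% in the other 4 libraries. Without library 628 the mean share of myeloid cells was 17.8% ± 1.81 (SD, n = 4). Macrophages were fewer than the 2 monocyte clusters together in 4 of 5 libraries, all but library 628. On the log2 scale this ratio averaged -1.35 ± 0.86 (exact sign-flip permutation test, p = 0.125, adjusted p = 0.167 over 4 ratios).

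Monocyte (c34) had its highest share of all cells in library 632. It made up 0.307% and 0.237% of all cells in dissected libraries 600 and 628, with 21 and 15 cells. Its share of vortexed libraries 623, 627 and 632 was 0.448%, 0.209% and 3.21%, with 44, 22 and 82 cells. Library 632 stood far above the other 4 libraries, of which the highest was library 623. The mean of 0.883% ± 1.31 (SD, n = 5) was 0.3004% ± 0.107 without library 632. Within the myeloid cells, Monocyte (c34) ranged between 5.33% in library 627 and 40.4% in library 632.

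Classical Monocyte (c35), the subset recruited in inflammation, made up 0.366% and 0.664% of all cells in dissected libraries 600 and 628, with 25 and 42 cells. Vortexed libraries 623, 627 and 632 gave 0.377%, 1.79% and 1.76%, with 37, 188 and 45 cells. Libraries 627 and 632 were alike and above the other 3, whose intervals lay below theirs. Classical Monocyte (c35) outnumbered Monocyte (c34) 1.19-fold and 2.74-fold in libraries 600 and 628 and 8.38-fold in library 627, but was 0.843-fold and 0.552-fold as frequent in libraries 623 and 632. The log2 ratio averaged 0.73 ± 1.56 and had both signs (exact sign-flip permutation test, p = 0.4375, adjusted p = 0.4375 over 4 ratios), and it ranged between 0.15 without library 627 and 1.13 without library 632.

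DC (c36), the antigen-presenting dendritic cells, kept the steadiest place among the leukocytes. They made up 10.6% and 8.89% of immune cells in dissected libraries 600 and 628, with 10 and 16 cells. In vortexed libraries 623, 627 and 632 they made up 10.4%, 11.6% and 6.97%, with 16, 52 and 17 cells. The highest library was 1.66 times the lowest, and the binomial intervals of all 5 libraries overlapped. As a share of all cells they varied 4.55-fold, between 0.146% in library 600 and 0.666% in library 632.

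pDC (c37), the interferon-producing dendritic cells, were the rarest in libraries 600, 628 and 623 and had the widest range of the 5 clusters. They made up 0.0585% and 0.126% of all cells in dissected libraries 600 and 628, with 4 and 8 cells. In vortexed libraries 623, 627 and 632 they made up 0.102%, 0.714% and 1.10%, with 10, 75 and 28 cells. The 18.8-fold range was the fifth widest of the 35 clusters found in every library, whose median range was 5.04-fold, and it was 12.2-fold without library 632. Monocyte (c34), with 15.3-fold and without library 632 2.14-fold, ranked 7, Macrophage (c33) 14, Classical Monocyte (c35) 19 and DC (c36) 20. Both dendritic clusters together were rarer than both monocyte clusters in 5 of 5 libraries, at -1.35 ± 0.39 in the mean of the log2 ratio (exact sign-flip permutation test, p = 0.063, adjusted p = 0.125 over 4 ratios). With the cells of the island left out, this ratio was -0.80 ± 0.35.

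**Figure D2:**
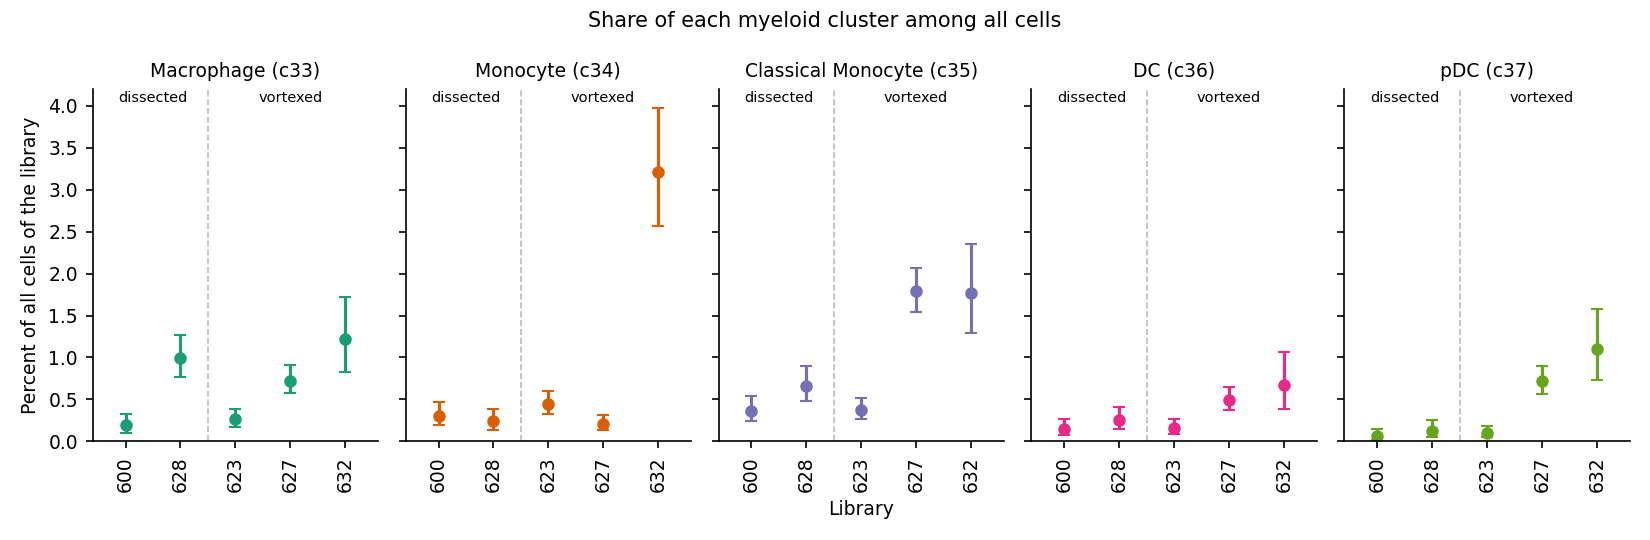
Percent of all cells of each library in the 5 myeloid clusters, on a shared linear axis, with dissected libraries left and vortexed libraries right of the dashed line. Points are libraries and bars exact 95% binomial intervals; Monocyte (c34) in library 632 lies at 3.21%, and the pDC (c37) values of libraries 627 and 632, 0.714% and 1.10%, lie above the other 3.

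The labels' protocols set hand dissection against vortexing. Mean shares of all cells were lower in the dissected libraries for each of the 5 clusters, but no cluster passed the test. By log2 odds, 17 of all 37 clusters were lower in the dissected libraries, these 5 among them. Shares of the same total are not independent of each other. Of all cells, myeloid cells made up 1.67% ± 0.854 in dissected libraries (SD, n = 2) and 4.41% ± 3.32 in vortexed libraries (n = 3), a difference of -2.74 percentage points (exact two-sided permutation test over libraries, p = 0.4, adjusted p = 0.4 over 2 comparisons). The groups overlapped, and without library 632 the difference was -0.97 points. Without library 623 it was -4.27 points, and without the cells of the island -1.76 points. Of immune cells, myeloid cells made up 78.8% ± 1.65 in dissected and 87.1% ± 4.34 in vortexed libraries. The groups did not overlap, and the difference of -8.28 points gave p = 0.2 in the exact permutation test (adjusted p = 0.4), where 2 libraries against 3 cannot go below 0.1.

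By single cluster, limma, fitted to the log2 odds of all 37 clusters, called 0 of the 5 myeloid clusters at an adjusted p of 0.05, as it called 0% of all clusters. At an unadjusted p below 0.05 it held 0 of the 5 myeloid clusters and 13.5% of all clusters. The shares of all cells of the preparations overlapped in all 5 myeloid clusters, while they did not overlap in 29.7% of all clusters. Among the 5 myeloid clusters the estimate farthest from 0 was that of pDC (c37), with a log2 odds ratio of dissected to vortexed of -2.24 (SE 1.07, 95% interval -4.74 to 0.26, limma adjusted p = 0.446). Monocyte (c34) gave -1.31 (95% interval -3.96 to 1.35), and -0.17 without library 632 and -0.47 without the island. Classical Monocyte (c35) gave -1.11 (-3.18 to 0.96), DC (c36) -0.95 (-2.85 to 0.95) and Macrophage (c33) -0.49 (-2.77 to 1.79). With 1 library left out, the Classical Monocyte (c35) estimate lay between -1.86 (without library 623) and -0.68 (without library 600), and that of DC (c36) between -1.55 (without library 623) and -0.54 (without library 632). The macrophage estimate had the other sign with library 600 left out, at 0.69, and was 0.0065 with library 632 left out. Without the island, macrophages made up 0.561% of dissected and 0.547% of vortexed libraries in the mean, against 0.593% and 0.734% with it. The median over the 5 clusters was -1.11, against 0.25 over all 37.

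Among leukocytes alone, the share of immune cells overlapped between the preparations in 4 of the 5 myeloid clusters, all but pDC (c37). This cluster made up 4.26% and 4.44% of immune cells in libraries 600 and 628, against 6.49%, 16.7% and 11.5% in libraries 623, 627 and 632 (exact two-sided permutation test, p = 0.2, not adjusted). Of the 7 immune clusters 28.6% did not overlap, pDC (c37) and B cell (c31), so 1 of 5 myeloid clusters was no more than the background. Of myeloid cells alone it made up 5.48% of library 600 and 5.56% of library 628, against 7.52%, 18.2% and 13.8% of libraries 623, 627 and 632, the 1 cluster of 5 (20%) without overlap. In library 600 these shares rest on 4 cells and in library 628 on 8. With immune cells as the denominator, limma gave a log2 odds ratio of -1.33 for pDC (c37) (adjusted p = 0.370 over 7 clusters).

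How alike the libraries were in the makeup of their myeloid cells depended on the island. With it, the makeup of libraries 600 and 623, one dissected and one vortexed, differed by 8.10 percentage points, the smallest distance of the 10 pairs, counted as the points by which clusters of 1 library exceeded those of the other. The distance was 26.0 points between the dissected libraries 600 and 628. Among the vortexed libraries it was 13.6 points for 623 and 632, 28.9 for 623 and 627, and 35.1 for 627 and 632. It averaged 24.5 points over the 6 pairs of different preparation and 25.9 over the 4 pairs of the same preparation. Without the island the order of these means was the other way, with 21.1 points for different and 17.6 for the same preparation. The smallest distance was then 10.9 points, between vortexed libraries 627 and 632, and the pair 600 and 623 differed by 13.9 points. The dissected libraries 600 and 628 differed by 30.8 points.

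In the embedding, the cells named Monocyte (c34) lay in separate places. Of the 184 cells, 133 lay in the detached island, with a median position of 8.62 and 12.7 on the axes, and the other 51 mostly among the macrophages, with a median of 11.3 and -1.36. The island was taken as the set of cells of the 5 libraries, linked by steps of at most 0.5 units, that held most of Monocyte (c34). This definition was chosen after the positions had been seen. Whether cells of other libraries join the island to the rest of the embedding was not tested. It held 633 cells, of which 33.3% were named Proximal tubule (c6), 21.0% Monocyte (c34), 10.4% Proximal tubule (c18), 8.69% Fibroblast (c26), 4.90% T cell (c32) and 3.63% Macrophage (c33). Most of its cells thus carried no immune name. With steps of 0.3 or 0.75 units it held the same numbers of each immune cluster.

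**Figure D3:**
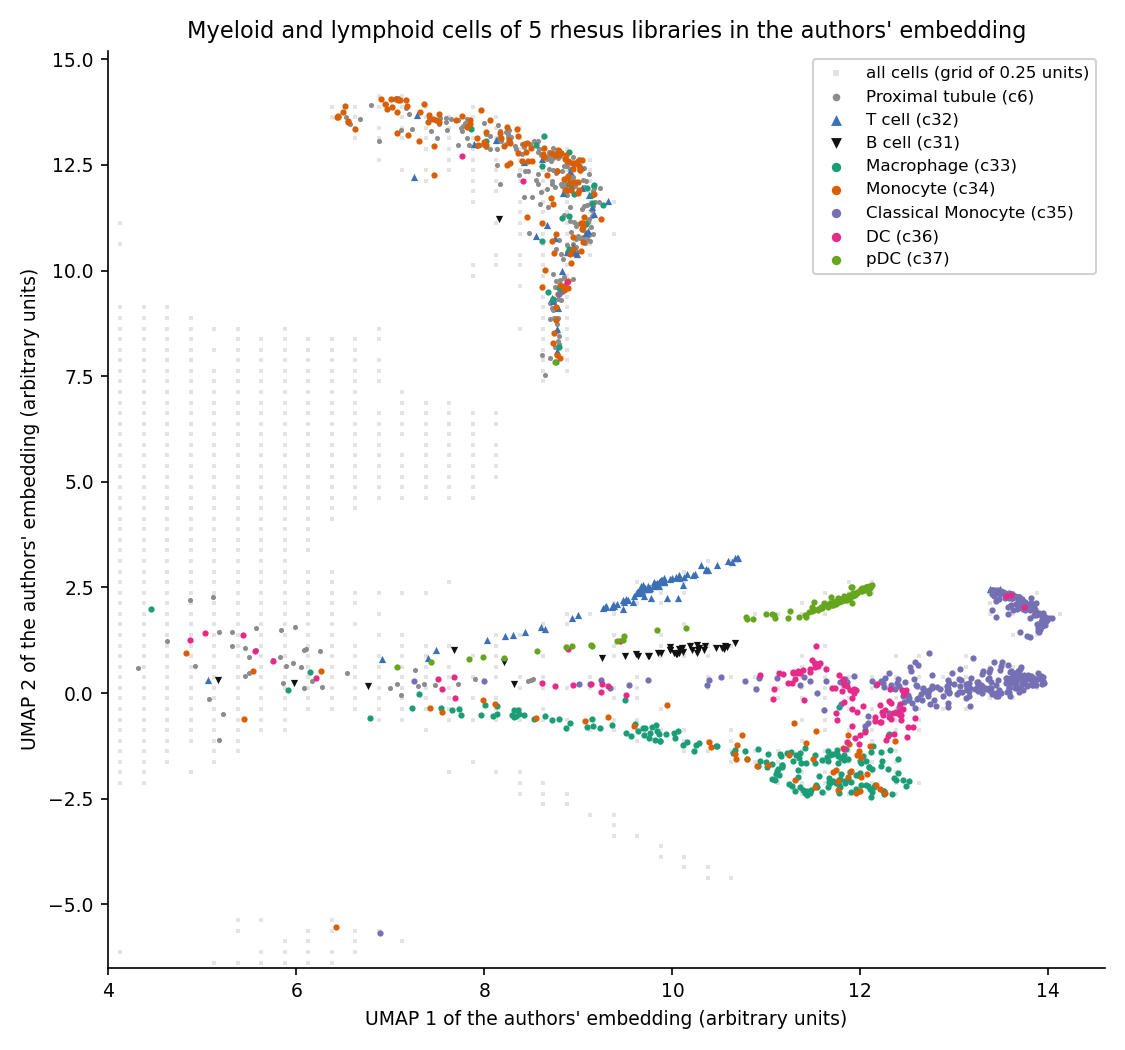
Positions of myeloid and lymphoid cells and of Proximal tubule (c6) in the right part of the study's embedding, both axes in arbitrary units, 1 point per cell of the 5 libraries, with grey squares wherever any cell lies. The island at the top holds 133 of the 184 Monocyte (c34) cells, the other 4 myeloid clusters lie mainly at the lower right, and Classical Monocyte (c35) forms a large and a small group there.

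The libraries differed in where their Monocyte (c34) cells lay. In dissected libraries 600 and 628, 14 of 21 and 6 of 15 cells were in the island. In vortexed libraries 623, 627 and 632, 37 of 44, 2 of 22 and 74 of 82 cells were. Thus 90.2% of the Monocyte (c34) cells of library 632 (95% interval, 81.7 to 95.7) were there, against 9.09% (1.12 to 29.2) in library 627. Macrophage (c33) showed the same placement to a lesser degree, with 5 of 13 and 0 of 63 cells in libraries 600 and 628 and 2 of 26, 0 of 76 and 16 of 31 in libraries 623, 627 and 632. A count of 0, taken to allow 3 cells, allows up to 4.76% in library 628 and up to 3.95% in library 627. In library 632, 23 of 38 T cell (c32) cells and 98 of 106 Proximal tubule (c6) cells were in the island as well. By contrast the island held 1 of 337 Classical Monocyte (c35), 3 of 111 DC (c36) and 1 of 125 pDC (c37) cells. Whether the island cells carry monocyte transcripts was not tested, since the table has no gene values.

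**Figure D4:**
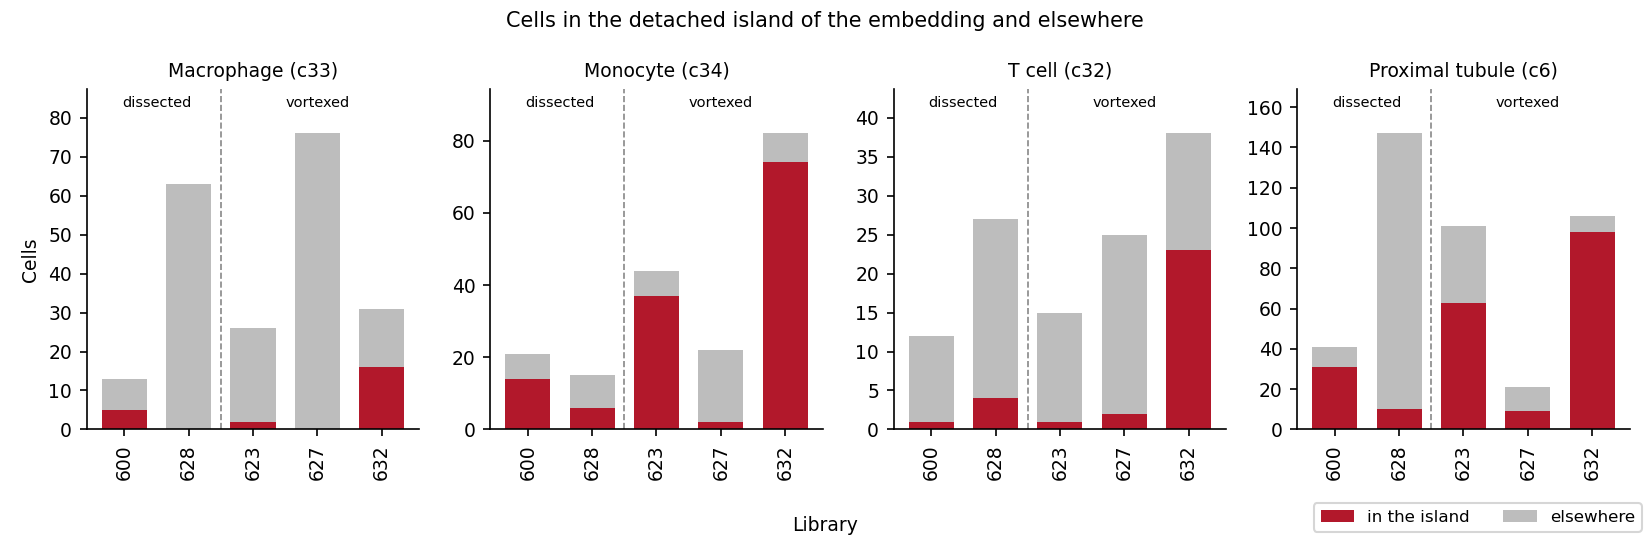
Numbers of Macrophage (c33), Monocyte (c34), T cell (c32) and Proximal tubule (c6) cells in the detached island and elsewhere, by library, with dissected libraries left and vortexed libraries right of the dashed line and a separate linear axis for each panel. In library 632 the island holds 16 of 31, 74 of 82, 23 of 38 and 98 of 106 cells.

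With the island left out, Monocyte (c34) varied less between libraries and Classical Monocyte (c35) did not. Monocyte (c34) then made up 0.104% and 0.143% of the remaining cells in libraries 600 and 628, with 7 and 9 cells. Its share was 0.0723%, 0.192% and 0.354% in libraries 623, 627 and 632, with 7, 20 and 8 cells. Classical Monocyte (c35) made up 0.370% and 0.669% in libraries 600 and 628, against 0.382%, 1.80% and 1.95% in libraries 623, 627 and 632, and its SD was 0.778 points, against 0.726 with the island. It outnumbered Monocyte (c34) in 5 of 5 libraries, with log2 ratios of 1.77 and 2.16 in libraries 600 and 628 and 2.32, 3.20 and 2.39 in libraries 623, 627 and 632. The mean was 2.37 ± 0.52 (SD, n = 5), against 0.73 ± 1.56 with the island. The island was defined by Monocyte (c34) and holds 133 of its cells but 1 of Classical Monocyte (c35). Leaving it out thus raises this ratio by construction, and the contrast in spread between the 2 clusters is shaped by the same definition. The values are a description with no test. Library 628 still stood apart by its macrophages, which made up 45.7% of its remaining myeloid cells, against 13.6% to 25.5% in the others. Myeloid cells made up 2.55% ± 1.80 of the remaining cells, and 7.95% in library 632 became 4.87%.

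For each cell, neighbours in the embedding were the 15 nearest differently named cells of its own library, counted where a library had at least 20 cells of that cluster. Positions and names come from the same data, so these shares are descriptions without a test. Around Macrophage (c33), 73.6% ± 20.05 of the neighbours were other myeloid names (SD, n = 4 libraries), although these were 3.11% of the reference cells. Monocyte (c34) made up 38.6% ± 19.9 of them and DC (c36) 24.9% ± 6.30. In dissected library 628 the myeloid share was 92.2%, and in vortexed libraries 623, 627 and 632 it was 55.1%, 89.6% and 57.4%. Over the 5 libraries together, 75.9% of the 15 nearest cells of any name around a macrophage outside the island were macrophages too, against 4.06% for the 23 macrophages inside it.

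Around Monocyte (c34), the main neighbour depended on the library. Proximal tubule (c6) made up 35.9% of the neighbours in dissected library 600, and 71.8%, 0.909% and 59.9% in vortexed libraries 623, 627 and 632. Macrophage (c33) made up 11.4% in library 600, and 8.79%, 71.8% and 9.27% in libraries 623, 627 and 632. Library 627, which had 2 of its 22 cells in the island, was thus the reverse of the other 3. Outside the island, 62.4% of the 15 nearest cells of any name were macrophages and 16.1% were Monocyte (c34), so that these 51 cells lay within the macrophages rather than in a place of their own. Inside the island, 42.6% were Proximal tubule (c6) and 30.3% Monocyte (c34).

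**Figure D5:**
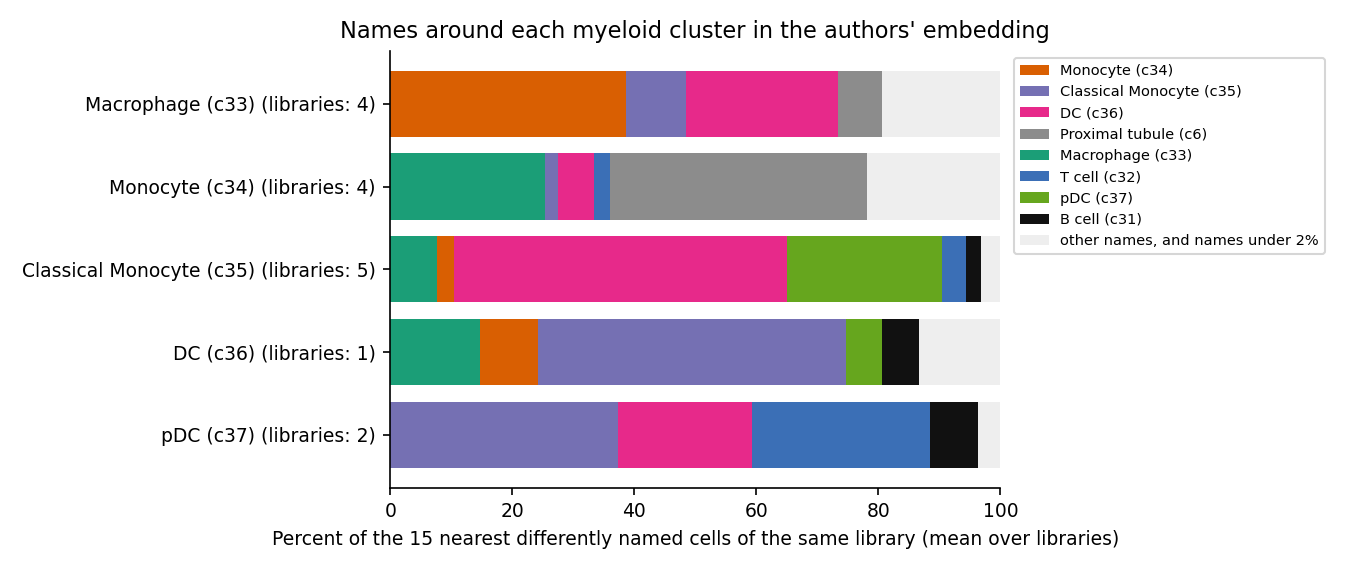
Names among the 15 nearest differently named cells of the same library, as the mean percent over libraries that hold 20 or more such cells, 1 bar per myeloid cluster. Proximal tubule (c6) makes up 42.1% for Monocyte (c34) and 7.25% for Macrophage (c33), and DC (c36) makes up 54.5% for Classical Monocyte (c35).

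Classical Monocyte (c35) and DC (c36) lay beside each other. Of the neighbours of Classical Monocyte (c35), 90.5% ± 6.48 were myeloid (SD, n = 5), with DC (c36) at 54.5% ± 11.96, pDC (c37) at 25.5% ± 12.8 and Monocyte (c34) at 2.88% ± 2.72. DC (c36) was the most frequent neighbour in libraries 600, 628, 623 and 627, with 56.0%, 56.2%, 55.9% and 68.9%, and pDC (c37) in library 632, with 45.5% against 35.6% for DC (c36). The neighbours of DC (c36) could be counted under this limit in library 627 alone, where 50.4% were Classical Monocyte (c35) and 14.7% Macrophage (c33). With libraries of at least 10 cells, the shares were 59.4% ± 7.23 and 12.8% ± 6.95 (SD, n = 5). The 2.88% of Monocyte (c34) among the neighbours of Classical Monocyte (c35) stood above its 0.896% of the cells that could have been counted, and was below the 7.58% of Macrophage (c33).

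Classical Monocyte (c35) also fell into a large and a small group, separated by more than 0.5 units among the cells of the 5 libraries. The small group held 110 of the 337 cells, or 32.6%, with a median position of 13.7 and 2.07, against 13.2 and 0.24 for the rest. Each library supplied both groups. The small group held 32% and 40.5% of the Classical Monocyte (c35) cells in libraries 600 and 628, against 24.3%, 29.8% and 44.4% in libraries 623, 627 and 632. All 5 intervals overlapped, in contrast to the island cells of Monocyte (c34). Besides these 110, the group held 5 T cell (c32), 3 DC (c36) and 1 M-phase (c27) cells.

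Among differently named cells, pDC (c37) had more lymphocyte neighbours than the other myeloid clusters counted in the same libraries, 627 and 632. T or B cells made up 23.7% of the differently named neighbours of pDC (c37) in library 627 and 50.2% in library 632. The same 2 libraries gave 0.887% and 1.48% for Classical Monocyte (c35), and 1.93% and 7.31% for Macrophage (c33). They gave 0.303% and 10.0% for Monocyte (c34), and library 627 gave 6.28% for DC (c36). Classical Monocyte (c35) made up 37.4% ± 3.35 of the pDC (c37) neighbours and T cell (c32) 29.1% ± 22.5. These counts leave out the pDC (c37) cells themselves and so reach past them. Of the 15 nearest cells of any name over the 5 libraries, 88.9% were pDC (c37) themselves, the highest own share of the 5 clusters. Myeloid names made up 89.7% of these nearest cells and immune names 94.0%, so few of them were T or B cells. The own share was 87.9% for Classical Monocyte (c35), 68.0% for Macrophage (c33), 56.5% for DC (c36) and 26.3% for Monocyte (c34).

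The share of nearest cells from the same library was somewhat above a value computed from the cluster's own cells alone, except in DC (c36). Around Classical Monocyte (c35), 45.8% of the 15 nearest cells came from the same library, against 36.2% if the cells of the cluster were mixed. The values were 37.1% against 26.4% for Macrophage (c33), 43.7% against 29.0% for Monocyte (c34), 45.7% against 42.2% for pDC (c37) and 26.4% against 29.3% for DC (c36). For macrophages the values were 35.1% against 30.7% outside the island and 53.3% against 53.9% inside it. For Monocyte (c34) the values were 32.5% against 24.7% outside and 47.9% against 40.03% inside. The second value of each pair assumes neighbours of the same cluster, while the first counts neighbours of any name. Inside the island, 4.06% of the neighbours of macrophages were macrophages, and 30.3% of those of Monocyte (c34) were Monocyte (c34). Own-name cells were 16.1% of the neighbours for Monocyte (c34) outside the island and 56.5% for DC (c36) over all its cells. Where many neighbours carry another name, the pairs do not measure mixing. Neither the excess nor the DC (c36) exception was tested, and all these values are a description only.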

How the data were processed

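Single-cell libraries were made with 10x Genomics 3' chemistry, per the labels' protocols. The submitters' processing notes list Seurat, Cell Ranger 6.0.1 and hg19 without their roles; how cells were filtered, doublets handled and clusters made is, in the sources used here, not given. The deposited table gives, for each cell, the authors' cluster name, library, species and UMAP position, which is a score in arbitrary units, per the file headers. Rows were used where the library name matched a sample title. The 58227 rows of 11 further library names, human cells and further rhesus libraries among them, were not analysed here. Species were not compared, and all shares and spreads cover the 5 libraries alone.

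Members, lists and comparisons were chosen with earlier results of these data known. The clusters named are the 5 myeloid ones, T and B cells, and others with 10% or more of a myeloid cluster's neighbours; Proximal tubule (c18), Fibroblast (c26) and M-phase (c27) were named after their counts were seen. Shares were compared by exact permutation tests over libraries. Clusters were compared with limma 3.58.1 (R 4.3.3) on log2 odds with 0.5 cells added, for clusters of at least 10 cells. The p-values were Benjamini-Hochberg adjusted over the 37 clusters, with 0.05 as the threshold. The step was run on simulated data whose spread between libraries was the median over clusters. How often it would call a change in the myeloid clusters was not shown. Ratios also had 0.5 cells added. Other steps used Python 3.11.15 and scipy 1.17.1. A count of 0 was taken to allow 3 cells. Alternatives covered the cells added, the transform, the denominator, the filter, the neighbours counted and each library left out; leaving out the island was added after the data were seen.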

Additional observations from a re-analysis of the deposited data

Results flagged for a closer look

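Over the 5 libraries of both preparations, 23 shares of myeloid clusters and their sums were examined for a library far from the rest, by the gap to the nearest library divided by the range. A critical ratio of 0.71 was passed by 4 shares, where chance gives about 1 in 20 and the shares are not independent. In library 632, Monocyte (c34) made up 3.21% of all cells, with a ratio of 0.920, and 74 of these 82 cells lay in the island of the embedding. In library 628, Macrophage (c33) made up 35% of immune cells and 43.8% of myeloid cells, with ratios of 0.812 and 0.850, and both monocyte clusters together made up 31.7% of immune cells, the lowest value, with a ratio of 0.717. None of the 63 macrophages of library 628 lay in the island.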

How the results depend on the processing

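Of 130 alternative values, 122 kept the direction and side of the threshold, or moved by less than the spread, and 4 reversed. For the share differences and ratios no p could fall below 0.05, so only a reversal could be seen there. Counts of clusters passing limma restate the same fits. For neighbours the spread was wide, with an SD of 34.8 points for Monocyte (c34). The 122 are therefore no measure of robustness. With immune cells as the denominator, the log2 odds ratio of dissected to vortexed turned to 0.70 for Macrophage (c33) and 0.068 for DC (c36). It moved the same way for Monocyte (c34), Classical Monocyte (c35) and pDC (c37), to -0.41, -0.16 and -1.33. Immune cells made up 2.11% of dissected and 5.14% of vortexed libraries in the mean, and the cause of the turns was not tested. With 1 library left out, the log2 odds ratio over all cells ranged from -1.67 to 0.69 for Macrophage (c33) and from -2.15 to -0.17 for Monocyte (c34). It ranged from -1.86 to -0.68 for Classical Monocyte (c35), from -1.55 to -0.54 for DC (c36) and from -3.26 to -1.57 for pDC (c37). None passed an adjusted p of 0.05 in limma under any alternative run. The myeloid share of all cells differed by between -4.27 and -0.97 points, and that of immune cells by between -10.2 and -5.95. With 50 neighbours, the myeloid part of the neighbours of Classical Monocyte (c35) was 75.7%. Library 600 held 73 myeloid cells, 25 of them Classical Monocyte (c35), so 50 differently named neighbours could not all be myeloid there. How much this lowered the mean was not tested. For DC (c36), with 80.6% in 1 library, the myeloid part was 84.2% with 5 neighbours, 79.8% with 50 and 82.6% with libraries of at least 10 cells. All 37 clusters passed the filter of at least 10 cells. With at least 50 cells the myeloid estimates were the same, and the limma adjusted p of pDC (c37) was 0.529, against 0.446. No paired analysis was possible because the libraries carry no shared replicate number. With 4 to 188 cells per cluster and library, counting error limits the small clusters, and without gene values the names cannot be checked.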

Other observations

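Few cells named by a phase of division lay among myeloid cells. Of the 5810 cells in the 3 clusters named by a phase of the cell cycle, 8 had mainly myeloid names among their 15 nearest cells, over the 5 libraries together. They were 4 cells of M-phase (c27), 1 of G2-M phase (c28) and 3 of G2-M phase (c29). By library they were 3 and 2 cells in libraries 600 and 628, against 1, 2 and 0 in libraries 623, 627 and 632.

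A few myeloid cells lay away from all leukocytes. Of the 15 nearest cells of any name, 0 carried an immune name for 6 of 184 Monocyte (c34), 6 of 111 DC (c36), 3 of 209 Macrophage (c33), 2 of 337 Classical Monocyte (c35) and 0 of 125 pDC (c37) cells.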
